A study of Homo sapiens with 6 samples.

Results

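The 10 genes described here are *ATF4*, *ATF3*, *ATF5*, *CEBPB*, *DDIT3* (which encodes CHOP), *DDIT4*, *TRIB3*, *CHAC1*, *ASNS* and *SESN2*, all effectors of the integrated stress response. They were taken by gene symbol from the 58735 genes of the deposited table, and all 10 were found. They were selected on their FPKM differences in this same comparison, so that their own levels and differences are given as a description, without p. When amino acids run short, unfolded proteins fill the endoplasmic reticulum (ER), heme is lacking or viral RNA is present, kinases phosphorylate the initiation factor eIF2. General translation then falls while *ATF4* mRNA is translated more, and ATF4 protein switches on genes for amino acid supply, redox balance and, through CHOP, cell death. Much of the control of ATF4 thus acts on its protein, which these libraries do not show.

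TPC-1 cells derive from a human papillary carcinoma of the thyroid. The 3 control libraries came from wild strain TPC-1, labelled WT. The other 3 came from *RRM2*-OE-TPC-1, the same line infected with a lentivirus that carries full-length *RRM2* under a CMV promoter, followed by puromycin selection. The sources describe no infection or selection of the wild strain, so that effects of *RRM2* and of the infection and selection cannot be told apart. The genotype label of *RRM2*-OE-TPC-1 replicates 2 and 3 reads RRM3 and RRM4, but the titles of both give *RRM2*. The study describes biological triplicates without saying how they were separated, and p-values measure only the spread between these libraries. RNA was selected by poly(A) tail per the methods, but per the labels ribosomal RNA was depleted and linear RNA digested with RNase R.

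Values are FPKM, which scales reads to gene length and to a sequencing depth taken for each library. In a library 14317091 to 17084067 reads lay on genes. *RRM2* had 9.17, 9.05 and 8.52 FPKM in TPC-1 and 50.4, 47.5 and 47.2 in *RRM2*-OE-TPC-1, as the labels would have it. Of the thyroid markers, *PAX8* (TPC-1 mean 69.3 FPKM, *RRM2*-OE-TPC-1 mean 58.5) and *FOXE1* (4.30 and 3.19) were present, *TG*, *TSHR* and *SLC5A5* stayed at means of 0.0841 FPKM or less, and *NKX2-1* was listed at 0 in every library. *KRT18*, an epithelial keratin, rose from 41.2 to 85.2 FPKM (log2 fold change 1.05, adjusted p = 2.74e-07 from limma), a value of 0.99 by voom. The summed FPKM of 7 leukocyte, endothelial and fibroblast markers was 2.86 to 3.22 for TPC-1 libraries and 2.41 to 2.63 for the others, with *CD3E* and *DCN* listed at 0 in every library. Of these markers 2 were tested. *PECAM1*, from a mean of 0.924 to 0.0588 FPKM, passed both thresholds lower, where 6.97% of all genes did. Its log2 fold change of -2.71 was -0.86 with a pseudocount of 1 and -4.08 by voom. *PDGFRB*, the other tested marker, had overlapping groups and went from a mean of 2.12 to 2.37 FPKM. Its log2 fold change was 0.16 (adjusted p = 0.223 from limma).

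Of the effectors, 6 were at least 3-fold lower in *RRM2*-OE-TPC-1, while *ATF4* itself was slightly lower and *ATF5* slightly higher. By mean FPKM, *DDIT4* stood 10.5-fold, *CHAC1* 6.25-fold, *ASNS* 4.33-fold, *TRIB3* 3.85-fold, *DDIT3* 3.64-fold and *CEBPB* 3.01-fold below TPC-1. *SESN2* was 1.69-fold and *ATF4* 1.20-fold lower. All 10 effectors passed the minimum on low values, and 6 passed both thresholds of a call, all lower. A call needed a limma adjusted p no greater than 0.05 and a log2 fold change of at least 1 in size. Of all 13621 genes tested, 11.5% passed both thresholds, 6.97% lower and 4.48% higher. By adjusted p alone 8 effectors were lower and 1 higher, where 67.6% of all genes passed, 32.7% lower and 34.9% higher. The groups of 3 libraries did not overlap for any effector, 9 lower and 1 higher, and they did not overlap for 72.2% of all genes either, 35.0% lower and 37.3% higher. The median log2 fold change was -1.72 over the effectors and 0.011 over all tested genes.

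**Figure D1:**
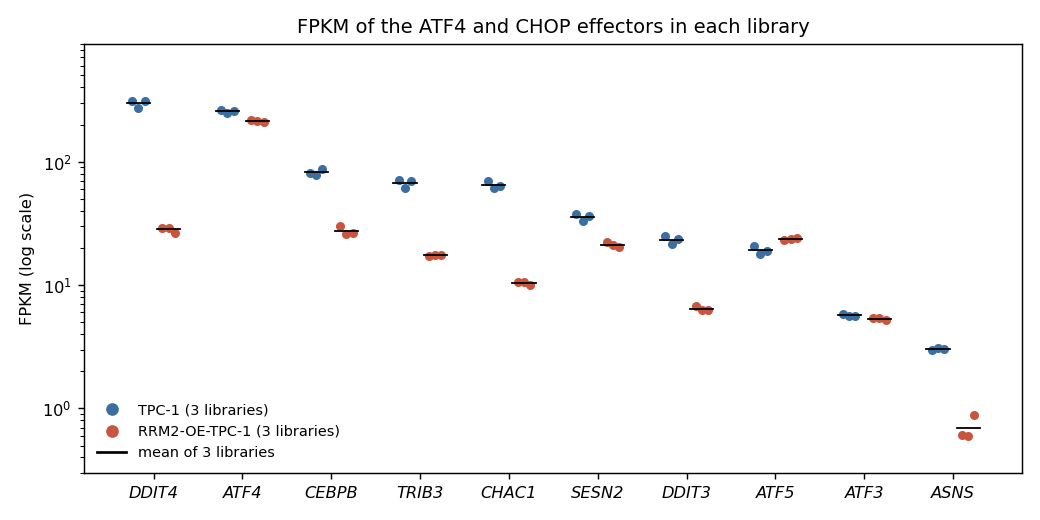
FPKM (log axis) of each effector in every library, ordered by the mean in TPC-1, with points for libraries and lines for means of 3. *DDIT4* drops from a mean of 297 to 28.3 FPKM, whereas the points of *ATF4* and *ATF3* lie close together.

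The transcription factors come first. *ATF4* (ENSG00000128272, chromosome 22 from 39519695 to 39522685 of GRCh38) encodes a bZIP factor, and its mRNA is translated more in this response. Its FPKM was 263, 249 and 257 in TPC-1 and 219, 213 and 208 in *RRM2*-OE-TPC-1. Every *RRM2*-OE-TPC-1 library thus lay below every TPC-1 library, by a small margin. The log2 fold change was -0.26 (standard error 0.0378), so that 83.3% of the TPC-1 level was left.

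*DDIT3* (ENSG00000175197, chromosome 12 from 57516588 to 57521737) encodes CHOP, a bZIP factor of the C/EBP family that ATF4 induces and that promotes death under lasting ER stress. It had 24.9, 21.5 and 23.7 FPKM in TPC-1 and 6.78, 6.25 and 6.24 in *RRM2*-OE-TPC-1. The libraries of each group lay close together and the groups far apart, with a log2 fold change of -1.85 (standard error 0.0629). These values rest on 473 to 544 reads per TPC-1 library and 128 to 140 per *RRM2*-OE-TPC-1 library. Of the 1307 exon bases of *DDIT3*, 355 (27.2%) also lie in exons of *MARS*, the methionyl-tRNA synthetase gene on the opposite strand, and 58 in exons of *MBD6*. *MARS* was more abundant, at 47.2, 44.4 and 47.3 FPKM in TPC-1 and 36.8, 34.2 and 34.4 in *RRM2*-OE-TPC-1 (log2 fold change -0.40, adjusted p = 7.09e-05 from limma). *MBD6* stood at means of 17.4 and 8.70 FPKM. The library kit keeps strand, but use of strand in counting is not given in the sources used here, so the level of *DDIT3* is uncertain and the part of these neighbours in its difference was not tested.

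**Figure D2:**
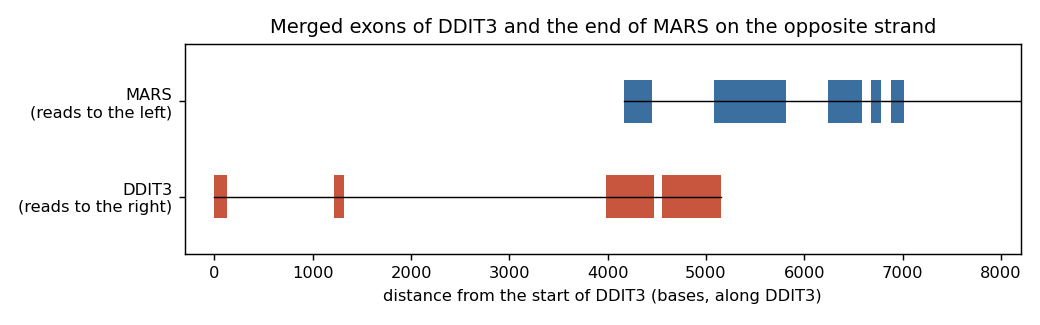
Merged exons of *DDIT3* (red) and of the last part of *MARS* (blue) from GENCODE 29, drawn to scale along *DDIT3*, with distance from its start in bases. Exons near the end of *MARS* overlap exons of *DDIT3*, and 355 bases of *DDIT3* exons are shared.

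*CEBPB* (ENSG00000172216, chromosome 20 from 50190734 to 50192689) encodes C/EBP beta, a dimer partner of both ATF4 and CHOP. In TPC-1 it had 81.4, 78.0 and 87.8 FPKM, and in *RRM2*-OE-TPC-1 30.0, 25.8 and 26.2. The lowest TPC-1 library was still far above the highest *RRM2*-OE-TPC-1 library, and the log2 fold change was -1.59 (standard error 0.0665). Its antisense gene *CEBPB-AS1* overlaps 11.8% of its exon bases at means of 0.222 and 0.238 FPKM.

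*ATF3* and *ATF5* differed less. *ATF3* (ENSG00000162772, chromosome 1 from 212565334 to 212620777), a bZIP factor induced by ATF4 and by many other stresses, had 5.81, 5.59 and 5.62 FPKM in TPC-1 and 5.43, 5.38 and 5.20 in *RRM2*-OE-TPC-1. The log2 fold change of -0.088 had a standard error of 0.0516, and the gap between the groups was smaller than the range within either. *ATF5* (ENSG00000169136, chromosome 19 from 49928702 to 49933935), a relative of *ATF4* whose mRNA is likewise translated under eIF2 phosphorylation, had 20.7, 17.8 and 18.7 FPKM in TPC-1 and 23.4, 23.7 and 23.9 in *RRM2*-OE-TPC-1. It was the only effector with the *RRM2*-OE-TPC-1 libraries on the upper side, at a log2 fold change of 0.31 (standard error 0.0547). Exons of *NUP62* on the opposite strand cover 21.2% of its exon bases, and *NUP62* went from a mean of 14.4 to 18.6 FPKM. Its part in the value of *ATF5* was not tested.

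Next are the genes that restrain growth signals. *DDIT4* (ENSG00000168209, chromosome 10 from 72273920 to 72276036) encodes REDD1, an inhibitor of the kinase complex mTORC1 that is induced by ATF4, hypoxia, glucocorticoids and p53. Its FPKM was 310.2, 272 and 309 in TPC-1, where it was the most abundant effector, and 29.2, 29.2 and 26.5 in *RRM2*-OE-TPC-1. Only 9.53% of the TPC-1 level was left, a log2 fold change of -3.39 (standard error 0.0619), which was rank 22 of 13621 genes counted from the most negative. With 868 to 1029 reads in the *RRM2*-OE-TPC-1 libraries, counting error is small here. *DDIT4-AS1*, on the opposite strand of 41.2% of its exon bases, was listed at 0 in every library. Of 9 hypoxia-induced genes, 7 were tested and 1 passed both thresholds, where 11.5% of all genes did. It was *VEGFA*, which was lower and is also counted among the ATF4 and CHOP targets. By adjusted p alone 3 were higher and 1 lower, where 34.9% and 32.7% of all genes were. The higher ones included *BNIP3*, from a mean of 16.5 to 32.9 FPKM (log2 fold change 0.99, adjusted p = 3.06e-07 from limma), and *NDRG1* (0.49, adjusted p = 3.14e-05). The median of these 7 was a log2 fold change of -0.083.

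*SESN2* (ENSG00000130766, chromosome 1 from 28259527 to 28282491) encodes sestrin 2, a leucine sensor that holds mTORC1 back and a target of both ATF4 and p53. It had 38.0, 33.1 and 36.0 FPKM in TPC-1 and 22.2, 21.1 and 20.2 in *RRM2*-OE-TPC-1. The groups were well apart, but the log2 fold change of -0.75 (standard error 0.0583) was short of the threshold of 1. *TRIB3* (ENSG00000101255, chromosome 20 from 362835 to 397559) encodes a pseudokinase that ATF4 and CHOP induce and that feeds back on both. Its FPKM was 71.1, 61.2 and 69.6 in TPC-1 and 17.3, 17.6 and 17.5 in *RRM2*-OE-TPC-1. The second group was very tight, with a coefficient of variation of 0.813% against 7.94% in TPC-1, and the log2 fold change was -1.94 (standard error 0.0562).

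The metabolic enzymes fell as well. *CHAC1* (ENSG00000128965, chromosome 15 from 40952962 to 40956519) encodes an enzyme that degrades glutathione and is among the genes most responsive to ATF4. It had 69.6, 61.4 and 63.8 FPKM in TPC-1 and 10.5, 10.6 and 10.1 in *RRM2*-OE-TPC-1. The difference was the second largest of the effectors, a log2 fold change of -2.63 (standard error 0.0503), and no other gene in the table overlaps its exons. *ASNS* (ENSG00000070669, chromosome 7 from 97852118 to 97872542) encodes asparagine synthetase. It was the least abundant effector by FPKM, at 2.96, 3.10 and 3.01 FPKM in TPC-1 and 0.606, 0.603 and 0.888 in *RRM2*-OE-TPC-1. Replicate 3 of *RRM2*-OE-TPC-1 stood above the other 2 libraries of its group, which gave a coefficient of variation of 23.4%, and only 39 to 63 reads were recovered in that group. The log2 fold change was -1.99 (standard error 0.148), or -1.25 with a pseudocount of 1. A gene on the same strand, *AC079781.5*, shares 44.6% of the exon bases of *ASNS* and stood at means of 0.0515 and 0.00453 FPKM. How reads in shared bases were assigned is not given in the sources used here, so the level of *ASNS* is uncertain. The part of this overlap in its difference was not tested.

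The amino acid response element, bound by ATF4 with a C/EBP partner, was searched as TGATGNAA on both strands of RefSeq promoter windows, from 250 bases before to 50 bases after a start site. It was present in 3.62% of all 35116 windows and in 3 of the 19 windows of the effectors. The matches lay in *CHAC1*, *ASNS* and *ATF3*, with log2 fold changes of -2.63, -1.99 and -0.088. The 250 bases before the start site of these genes are shown with the match in capitals, and *DDIT4*, the effector with the deepest fall, is shown as a window without one. They lie at chr15:40953221-40953470 (plus strand) for *CHAC1*, chr7:97872409-97872658 (minus strand) for *ASNS*, chr1:212565157-212565406 (plus strand) for *ATF3* and chr10:72273674-72273923 (plus strand) for *DDIT4* on GRCh38.p14, each written 5′ to 3′ along its gene.
CHAC1: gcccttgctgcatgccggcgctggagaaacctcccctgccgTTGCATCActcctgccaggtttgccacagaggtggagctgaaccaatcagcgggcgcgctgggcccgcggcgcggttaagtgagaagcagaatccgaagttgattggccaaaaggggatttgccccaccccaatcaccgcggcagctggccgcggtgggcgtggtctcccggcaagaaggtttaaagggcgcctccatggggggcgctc
ASNS: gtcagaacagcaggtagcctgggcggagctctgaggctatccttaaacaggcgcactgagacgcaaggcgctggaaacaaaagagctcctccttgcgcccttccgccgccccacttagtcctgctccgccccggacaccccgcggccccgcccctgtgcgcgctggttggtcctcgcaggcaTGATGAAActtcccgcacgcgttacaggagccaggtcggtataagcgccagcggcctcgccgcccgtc
ATF3: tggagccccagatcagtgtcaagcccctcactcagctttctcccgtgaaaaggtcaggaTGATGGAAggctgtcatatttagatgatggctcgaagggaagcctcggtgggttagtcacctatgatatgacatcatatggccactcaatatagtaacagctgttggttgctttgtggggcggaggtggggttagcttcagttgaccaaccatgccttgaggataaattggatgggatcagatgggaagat
DDIT4: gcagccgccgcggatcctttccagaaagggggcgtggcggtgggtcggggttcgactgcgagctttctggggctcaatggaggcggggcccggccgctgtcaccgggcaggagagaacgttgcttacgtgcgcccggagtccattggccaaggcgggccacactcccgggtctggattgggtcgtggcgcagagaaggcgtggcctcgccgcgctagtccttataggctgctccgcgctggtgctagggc

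In *CHAC1* the element reads in the antisense direction and begins at -209 from the start site. In *ASNS* it reads in the sense direction from -68, and in *ATF3* from -191. The cAMP response element (TGACGTCA) was in 1.85% of all windows and the ER stress response element in 0.0769%, and neither was in a window of an effector. A match to these letters is a description and not a binding site.

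The order of the effectors by FPKM, which is scaled to the merged exon length of each gene, differed between the groups. Exon bases shared with other genes leave places in this order uncertain, such as those of *DDIT3* and *ASNS*. In TPC-1 it ran *DDIT4*, *ATF4*, *CEBPB*, *TRIB3*, *CHAC1*, *SESN2*, *DDIT3*, *ATF5*, *ATF3* and *ASNS*, and only *TRIB3* and *CHAC1* overlapped between neighbours. In *RRM2*-OE-TPC-1 it ran *ATF4*, *DDIT4*, *CEBPB*, *ATF5*, *SESN2*, *TRIB3*, *CHAC1*, *DDIT3*, *ATF3* and *ASNS*, and only *DDIT4* and *CEBPB* overlapped. *ATF4* kept a level of 214 ± 5.68 FPKM (SD, n = 3) against 28.3 ± 1.53 (SD, n = 3) for *DDIT4* in the second group. Among 4263 protein-coding genes with a mean of at least 10 FPKM, those most like *ATF4* across the 6 libraries were *CSNK1G2*, *PKIG* and *NOP53*, each with a Pearson r of 0.998. This is a description, since any gene with tight groups and a fall follows the same split of the libraries.

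**Figure D3:**
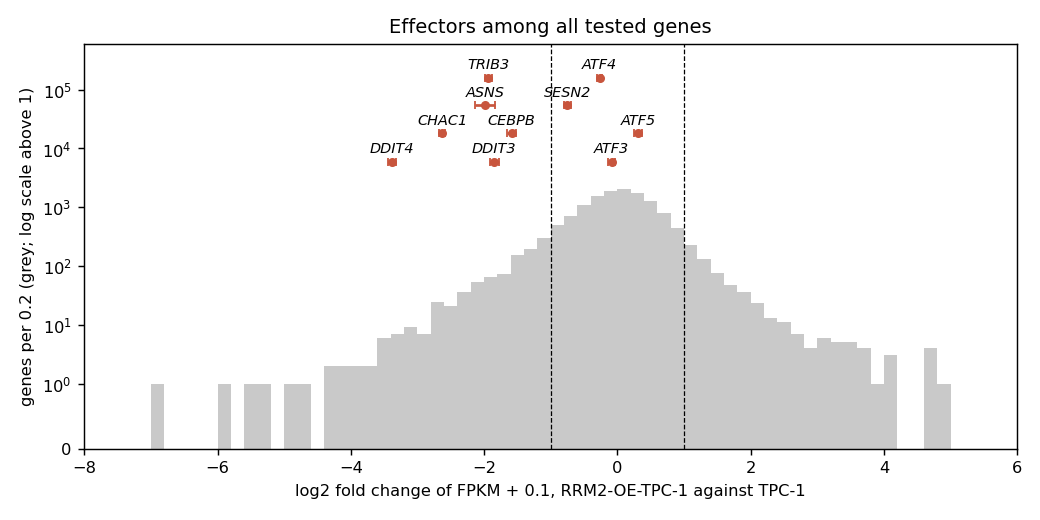
Log2 fold changes of the effectors (red points with standard errors, placed at 4 heights for legibility only) above the histogram of all 13621 tested genes (grey, number of genes per 0.2 on an axis that is log above 1). Dashed lines mark the threshold of 1, and 6 effectors lie to the left of -1.

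The genes upstream of *ATF4* come next. Of 21 genes for eIF2 kinases, eIF2, its exchange factor eIF2B and the eIF2 phosphatase, 21 were tested and 0 passed both thresholds by limma, and 0 by voom on reads, where 11.5% of all genes passed by limma. At an unadjusted p under 0.05 there were 8 higher and 5 lower (over all 13621 genes, 4943 and 4666), and at an adjusted p of 0.05 or less without the threshold on the fold also 8 and 5, where 34.9% and 32.7% of all genes passed. The median log2 fold change of the list was 0.015. *EIF2AK4*, the kinase GCN2 that senses uncharged tRNA, ranged from 8.81 to 10.05 FPKM over the TPC-1 libraries and from 12.8 to 13.6 over the *RRM2*-OE-TPC-1 libraries (log2 fold change 0.50, adjusted p = 9.91e-05 from limma). *EIF2AK2*, the RNA-activated kinase PKR, went from a mean of 8.58 to 11.0 FPKM (0.35, adjusted p = 5.06e-04 from limma). For the ER kinase PERK, *EIF2AK3*, the log2 fold change was -0.098 with a standard error of 0.0924 (limma, adjusted p = 0.372), and for the heme-regulated kinase *EIF2AK1* it was 0.045 (standard error 0.0498, adjusted p = 0.443). *PPP1R15A*, which encodes the stress-induced phosphatase subunit GADD34, had 20.2, 17.2 and 19.9 FPKM in TPC-1 and 17.7, 18.7 and 17.0 in *RRM2*-OE-TPC-1. Its groups overlapped (log2 fold change -0.099, adjusted p = 0.219 from limma). The levels of these mRNAs do not measure kinase activity or eIF2 phosphorylation. *PPP1R15A* is also counted among the ATF4 and CHOP targets, and *DNAJC3* of this list also among the genes of the IRE1 and ATF6 branches.

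Beyond the effectors, many genes that ATF4 or CHOP are known to induce were lower too. Targets of ATF4 and targets of CHOP were listed together. Of 60 such genes in 4 lists, 58 were tested, and 18 passed both thresholds lower and 0 higher by limma, against 6.97% and 4.48% of all genes. At an unadjusted p under 0.05 there were 41 lower and 8 higher (over all 13621 genes, 4666 and 4943), and by voom on reads 19 passed both thresholds, all lower. The median log2 fold change of the 58 genes was -0.59. These lists were written with earlier results of these data known, so that the counts are a description.

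Amino acid and one-carbon synthesis held the most of these, with 7 of 14 tested genes lower past both thresholds and 0 higher (1 higher at an unadjusted p under 0.05, and the median was -1.04). *PCK2*, the mitochondrial phosphoenolpyruvate carboxykinase, fell from 58.2, 54.5 and 59.0 FPKM to 8.04, 8.39 and 7.67 (log2 fold change -2.82, standard error 0.0477, adjusted p = 1.02e-08 from limma). The transsulfuration enzymes *CTH* and *CBS*, which lead from homocysteine to cysteine, fell side by side. *CTH* went from a mean of 15.0 to 3.58 FPKM (-2.04, adjusted p = 4.65e-07 from limma). *CBS* went from 28.0 to 6.75 FPKM (-2.04, adjusted p = 1.03e-06 from limma), and this value is uncertain since the near-identical copy *CBSL* can share its reads.

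Among amino acid transporters, 3 of 10 tested genes passed both thresholds lower and 0 higher, where 6.97% and 4.48% of all genes did. These were the glycine transporter *SLC6A9*, from a mean of 15.0 to 3.42 FPKM (log2 fold change -2.10, adjusted p = 5.94e-08 from limma), the neutral amino acid transporter *SLC1A4*, from 9.96 to 2.53 (-1.94, adjusted p = 1.07e-06), and the cystine transporter *SLC7A11*, from 18.3 to 7.87 (-1.21, adjusted p = 2.83e-07). *SLC7A5*, named after its values were seen, was the 1 gene higher at an unadjusted p under 0.05. It went from a mean of 390 to 523 FPKM (log2 fold change 0.42, adjusted p = 5.61e-05 from limma). *SLC7A3* was listed at 0 in every library. Of 13 genes for tRNA charging, 12 had a negative log2 fold change, as had 6700 of all 13621 genes, and 2 passed both thresholds, where 11.5% of all genes did. These were *WARS* at -1.38 (adjusted p = 1.28e-07 from limma) and *AARS* at -1.10 (adjusted p = 6.46e-07), which encode the synthetases for tryptophan and alanine.

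The last of these lists, of mixed function, had 6 of 21 tested genes lower past both thresholds and 0 higher, although 6 were higher at an unadjusted p under 0.05. *VEGFA*, the angiogenic growth factor, fell from a mean of 35.0 to 7.22 FPKM (log2 fold change -2.26, adjusted p = 9.81e-09 from limma). *NUPR1*, a stress-induced chromatin protein, fell from 34.4 to 10.5 (-1.71, adjusted p = 5.01e-08), and *ADM2*, a peptide hormone gene, from 9.70 to 3.77 (-1.34, adjusted p = 3.22e-06). *GDF15*, a secreted cytokine that both the ATF4 pathway and p53 induce, moved the other way, from 15.0, 12.3 and 16.4 FPKM to 20.8, 22.2 and 23.4 (0.61, adjusted p = 7.98e-04 from limma), below the threshold on the fold. *BBC3*, named after its values were seen, is a death gene that CHOP and p53 induce, and it went from a mean of 3.56 to 6.75 FPKM (0.90, adjusted p = 1.05e-05 from limma). The rest of the 6 higher genes were likewise named after their values were seen. They were *SQSTM1* (0.42, adjusted p = 2.44e-05 from limma), *TNFRSF10B* (0.39, adjusted p = 1.29e-05), *ERO1A* (0.27, adjusted p = 0.00437) and *GADD45A* (0.21, adjusted p = 0.0285).

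**Figure D4:**
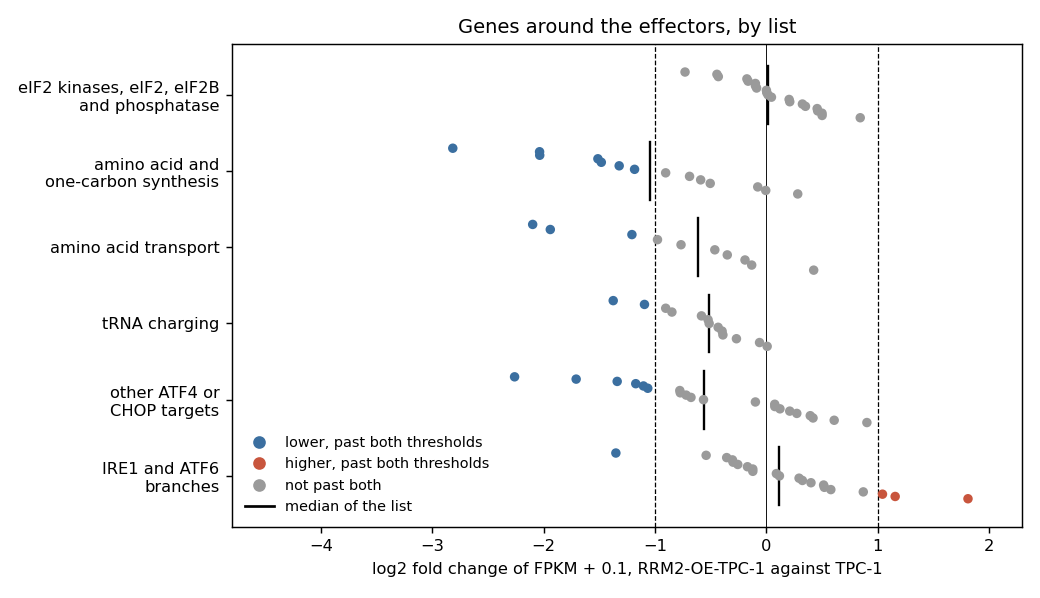
Log2 fold change of each tested gene of 6 lists, with points in blue (lower) or red (higher) where both thresholds were passed, grey otherwise, and a black bar at the list's median. The 4 lists of ATF4 and CHOP targets have medians between -1.04 and -0.51, and the upstream list and the IRE1 and ATF6 list have medians of 0.015 and 0.12.

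The other branches of the unfolded protein response, which run through IRE1 with XBP1 and through ATF6, were mixed in direction. Of 21 tested genes, 3 passed both thresholds higher and 1 lower, against 4.48% and 6.97% of all genes, and the median log2 fold change was 0.12. *SDF2L1*, an ER chaperone cofactor, rose from 6.98, 7.90 and 9.42 FPKM to 29.6, 27.9 and 27.9 (log2 fold change 1.81, adjusted p = 1.60e-06 from limma). *CALR*, the calcium-binding chaperone calreticulin, rose from a mean of 162 to 362 FPKM (1.16, adjusted p = 9.74e-08). *CRELD2* had a log2 fold change of 1.04 (adjusted p = 4.51e-04), which was 0.92 to 1.21 with each library left out in turn and fell short of 1 without TPC-1 replicate 2, TPC-1 replicate 3 or *RRM2*-OE-TPC-1 replicate 1. It was 0.87 with a pseudocount of 1 and 0.99 by voom, and with these settings or library totals 2 genes were called higher. *HERPUD1*, which serves degradation of ER proteins, was the lower gene, from a mean of 51.7 to 20.2 FPKM (-1.35, adjusted p = 3.09e-08 from limma). *HSPA5*, the main ER chaperone, is given here with its values known beforehand, and went from a mean of 331 to 305 FPKM (-0.12, adjusted p = 0.0357 from limma).

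The effectors belong to families, and 11 paralogs were compared with them. Of these, 8 were tested, and 3 passed both thresholds lower and 1 higher, where 6.97% and 4.48% of all genes did. *CEBPG* and *JDP2* are also counted among the ATF4 and CHOP targets. In the C/EBP family, *CEBPD* fell from 64.8, 60.5 and 64.1 FPKM to 22.4, 21.3 and 20.9 (log2 fold change -1.55, adjusted p = 6.32e-08 from limma), close to the -1.59 of *CEBPB*. *CEBPG*, a partner of ATF4, had -1.17 (adjusted p = 7.94e-07), while *CEBPA* was low at means of 1.47 and 1.24 FPKM (-0.22, adjusted p = 0.116). *JDP2*, the nearest relative of *ATF3*, had -0.56 (adjusted p = 1.39e-04 from limma). In the Tribbles family, *TRIB2* fell from 16.7, 18.2 and 17.1 FPKM to 4.10, 4.08 and 3.91 (-2.08, adjusted p = 4.36e-08 from limma), and *TRIB1* had -0.96 (adjusted p = 5.10e-06), or -1.03 by voom.

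Sestrins and CHAC enzymes were split. *SESN1*, a p53 target, rose from 2.55, 2.42 and 2.40 FPKM in TPC-1 to 6.40, 6.99 and 7.01 in *RRM2*-OE-TPC-1 (log2 fold change 1.43, adjusted p = 7.84e-07 from limma), opposite to the difference in *SESN2*. *CHAC2*, the constitutive counterpart of *CHAC1*, had 4.72, 4.10 and 4.37 FPKM in TPC-1 and 6.28, 6.81 and 7.36 in *RRM2*-OE-TPC-1 (0.62, adjusted p = 1.86e-04). *CEBPE*, *SESN3* and *DDIT4L* had at most 0.0376 FPKM in a library and were not tested.

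**Figure D5:**
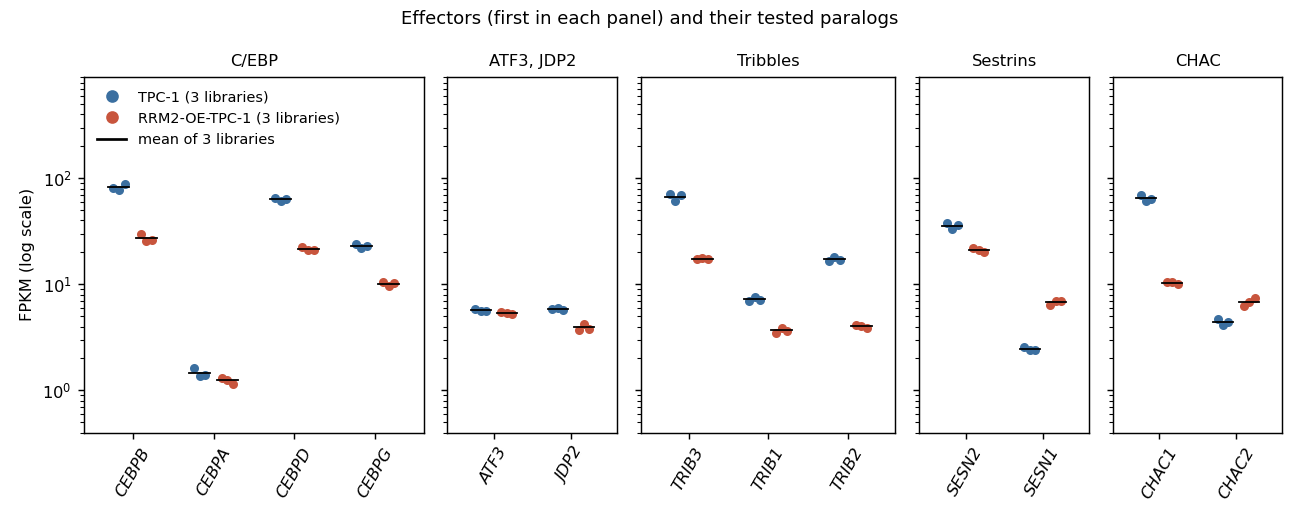
FPKM (log axis) of effectors and their tested paralogs in each library, with lines for means of 3 libraries. *CEBPD* and *TRIB2* lie lower in *RRM2*-OE-TPC-1 as *CEBPB* and *TRIB3* do, whereas *SESN1* and *CHAC2* lie higher while *SESN2* and *CHAC1* lie lower.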

How the data were processed

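There were 3 mRNA libraries each from wild strain TPC-1 and from *RRM2*-OE-TPC-1. After trimming with fastp, the authors used HISAT2 for alignment (2.0.5 in the submitters' processing notes) and featureCounts (1.5.0) for counting. They deposited FPKM values, which scale reads to gene length and to a sequencing depth taken for each library. The notes name GRCh38, and all 58735 identifiers and positions were those of GENCODE 29. Use of strand in counting is not given in the sources used here. Multiplied by gene length, 100.0% of the values above 0 came out, library by library, as whole numbers of 1 step (within 0.01), which were taken as reads. The depth that this step implies was 1.031 to 1.053 times the reads on genes in TPC-1 libraries. In *RRM2*-OE-TPC-1 libraries it was 0.997 to 1.010 times those reads. Divided by median-of-ratios factors and set to a mean of 1, the depth was 0.999 to 1.001, so the deposited values nearly carry that scaling.

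FPKM was analysed as log2(FPKM + 0.1) with limma 3.58.1 (R 4.3.3) using its mean-variance trend, with Benjamini-Hochberg adjustment over the 13621 genes that reached 0.5 FPKM and 10 reads in at least 3 libraries. The call took an adjusted p no greater than 0.05 and a log2 fold change of at least 1 in size. This procedure was tested on simulated data. Tables and plots were made with Python 3.11.15, pandas 2.3.3 and matplotlib 3.10.9. The 10 effectors and all gene lists were chosen with earlier results of these data known, so that the effectors are given without p and no list was tested as a set. The lists were written by hand. Named genes are the effectors, *RRM2*, *MARS*, up to 3 genes in each direction of each list with the largest changes among called genes with a mean FPKM of at least 1, the eIF2 kinases, *PPP1R15A*, *GDF15*, the paralogs and the 3 genes most like *ATF4*. Markers of cell identity, genes that overlap an effector, *CBSL*, *SLC7A3*, *BBC3*, *HSPA5*, *BNIP3* and *NDRG1* lie outside this rule and were named with their values known. The same holds for *SLC7A5*, *SQSTM1*, *TNFRSF10B*, *ERO1A*, *GADD45A* and *DNAJC3*. Promoter sequences are those of RefSeq on GRCh38.p14, and 10 of 10 effectors were matched there by symbol. Alternatives were pseudocounts of 1 and 0.01, testing without the minimum on low values, library totals or median-of-ratios for scaling, a block for the replicate number, voom on the recovered reads, adjusted p alone, and each library left out in turn. An empty vector control was not analysed here.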

Additional observations from a re-analysis of the deposited data

How the results depend on the processing

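The number of effectors past both thresholds was 6 under every alternative but adjusted p alone, where it was 9, and these were the same 6 genes each time. Over 13 other settings, the log2 fold changes of the effectors kept their direction. Among these settings, median-of-ratios could move little, since the deposited values nearly carry that scaling. The replicate block and testing without the minimum on low values leave a log2 fold change as it is. Of 130 values, 123 moved by less than the spread between replicates and 7 by more, among them *ASNS* at -1.25 with a pseudocount of 1. With a pseudocount of 1, 716 of all genes passed both thresholds in place of 1560. With adjusted p alone, the counts were 9207 of all genes, 13 upstream genes, 49 ATF4 and CHOP targets and 18 genes of the IRE1 and ATF6 branches. With each library left out in turn, they ranged from 1573 to 1608 for all genes and from 17 (without *RRM2*-OE-TPC-1 replicate 3) to 18 for the targets and from 3 to 4 for the IRE1 and ATF6 branches, and stayed at 6 for the effectors and 0 for the upstream genes. The replicate number as a block gave 1566 genes, 6 effectors and 18 targets and 4 genes of the IRE1 and ATF6 branches, with the calls of the effectors and of these lists as before. The numbers do not pair the libraries, since the deviations of same-numbered libraries correlated at -0.011, -0.0060 and -0.055. Scaling to library totals moved the median of all genes by -0.057. Counting error limits *ASNS* most, with 39 to 63 reads in the *RRM2*-OE-TPC-1 libraries.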
